A study of Mus musculus with 12 samples.

Results

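Feedback genes of the JAK-STAT pathway were examined in the skin of C3H/HeJ mice with alopecia areata (AA) treated topically with the JAK1/2 inhibitor baricitinib. The genes were Cish, Socs1, Socs2, Socs3, Ptpn2, Ptpn6 and Pias1, and every probe set annotated with exactly 1 of these symbols was taken, which gave 21 of the 45037 probe sets tested. There were 6 probe sets for Socs2, 4 each for Ptpn2 and Pias1, 3 for Socs3, 2 for Ptpn6 and 1 each for Cish and Socs1. The model is made by grafting alopecic skin of an affected C3H/HeJ donor onto C3H/HeJ recipients, and all 4 groups carried such grafts and had established disease when treatment began. The groups were baricitinib week 12, baricitinib week 0, vehicle week 12 and vehicle week 0, with 3 mice per treatment, 3 arrays per group and 12 arrays in all. Week 0 is the start of treatment, so the baricitinib week 0 skin had not yet received the drug. The arrays of a treatment carry the same numbers at both times. That arrays with 1 number are biopsies of 1 mouse was assumed. Age and sex are not given in the labels of these samples. Values are the deposited RMA values on the log2 scale, in which a difference of 1 is a doubling.

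Cytokine receptors of this class have no kinase of their own. JAK kinases bound to them phosphorylate the receptor and then STAT factors, which pair, enter the nucleus and switch on target genes. Some of these targets close a loop. CIS, the product of Cish, and SOCS2 bind phosphorylated receptors, chiefly those that act through STAT5, whereas SOCS1 and SOCS3 also block the JAK kinase itself, and all of them recruit a ubiquitin ligase. The phosphatases TC-PTP (Ptpn2) and SHP-1 (Ptpn6) remove phosphate from JAKs, STATs or receptors, and PIAS1, a SUMO ligase, binds activated STAT. In AA skin, interferon-gamma made by cytotoxic T cells is known to signal through JAK1 and JAK2, the kinases that baricitinib inhibits.

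STAT dimers are known to bind the palindrome TTCNNNGAA, which reads the same on both strands and therefore needed a search of only 1. Stretches that hold it are shown as matches of letters only, and whether STAT binds there was not tested. They come from the RefSeq promoter windows on GRCm38.p6, which run from 250 bases before to 50 bases after an annotated start. A window was given for 5 of the 7 genes (Cish, Socs1, Socs3, Ptpn6 and Pias1), and 2 of these, Cish and Socs3, held a match, as did 8.30% of all 32851 windows. Irf1, an interferon-gamma target, is shown beside them. The matches are in capitals in 30 bases read 5′ to 3′.
Cish: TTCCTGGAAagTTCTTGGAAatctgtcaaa
Socs3: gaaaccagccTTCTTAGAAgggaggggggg
Irf1: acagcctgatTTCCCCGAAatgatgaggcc
The Cish stretch, at chr9:107296659-107296688 on the plus strand, begins at the annotated start of the gene and holds 2 matches, at its bases 1 and 12. The Socs3 stretch, at chr11:117969501-117969530 on the minus strand, has its match 154 bases before the start used for the window, and it lies within the annotated span of the gene (117966079 to 117970336). The Irf1 stretch, at chr11:53769914-53769943 on the plus strand, has its match 90 bases before 1 of the 2 starts given for that gene. No match was found in the windows of Socs1, Ptpn6 and Pias1, which says only that these letters are not there.

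On the first question, which was whether the feedback genes changed in skin treated with baricitinib, 0 of the 21 probe sets passed an adjusted p of 0.05 (limma, Benjamini-Hochberg over all probe sets) for baricitinib week 12 against week 0. Over all probe sets, 1.24% were called in that comparison. For baricitinib against vehicle at week 12 the members called were again 0 of 21, with 0.580% of all probe sets called. Counts of 0 of 21 were also obtained for vehicle week 12 against week 0, for baricitinib against vehicle at week 0 and for the change with baricitinib minus the change with vehicle, and in these comparisons 0% of all probe sets were called. With shares this low over the array, no call among 21 probe sets is near what the background gives. At an unadjusted p under 0.05 there were 3 of 21 members for baricitinib week 12 against week 0 (12.3% of all probe sets), 1 for vehicle week 12 against week 0 (2.46%), 2 for baricitinib against vehicle at week 12 (10.9%), 0 for the treatments at week 0 (1.13%) and 1 for the difference of the changes (6.27%). In the same baricitinib-treated skin 9 of 15 interferon-gamma targets were called lower than at week 0. Cxcl9, a chemokine for T cells, had 7.37, 7.43 and 6.06 at baricitinib week 12, against 11.71, 12.04 and 12.19 at week 0. It fell by 5.02 on the log2 scale (SE 0.393, adjusted p = 0.000546 by limma). In the vehicle mice Cxcl9 had 10.93, 10.42 and 10.41 at week 12, against 12.24, 12.17 and 11.19 at week 0. With vehicle, 14 of the 15 targets were below 0 for week 12 against week 0 (median -0.39), and 0 were called.

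**Figure D1:**
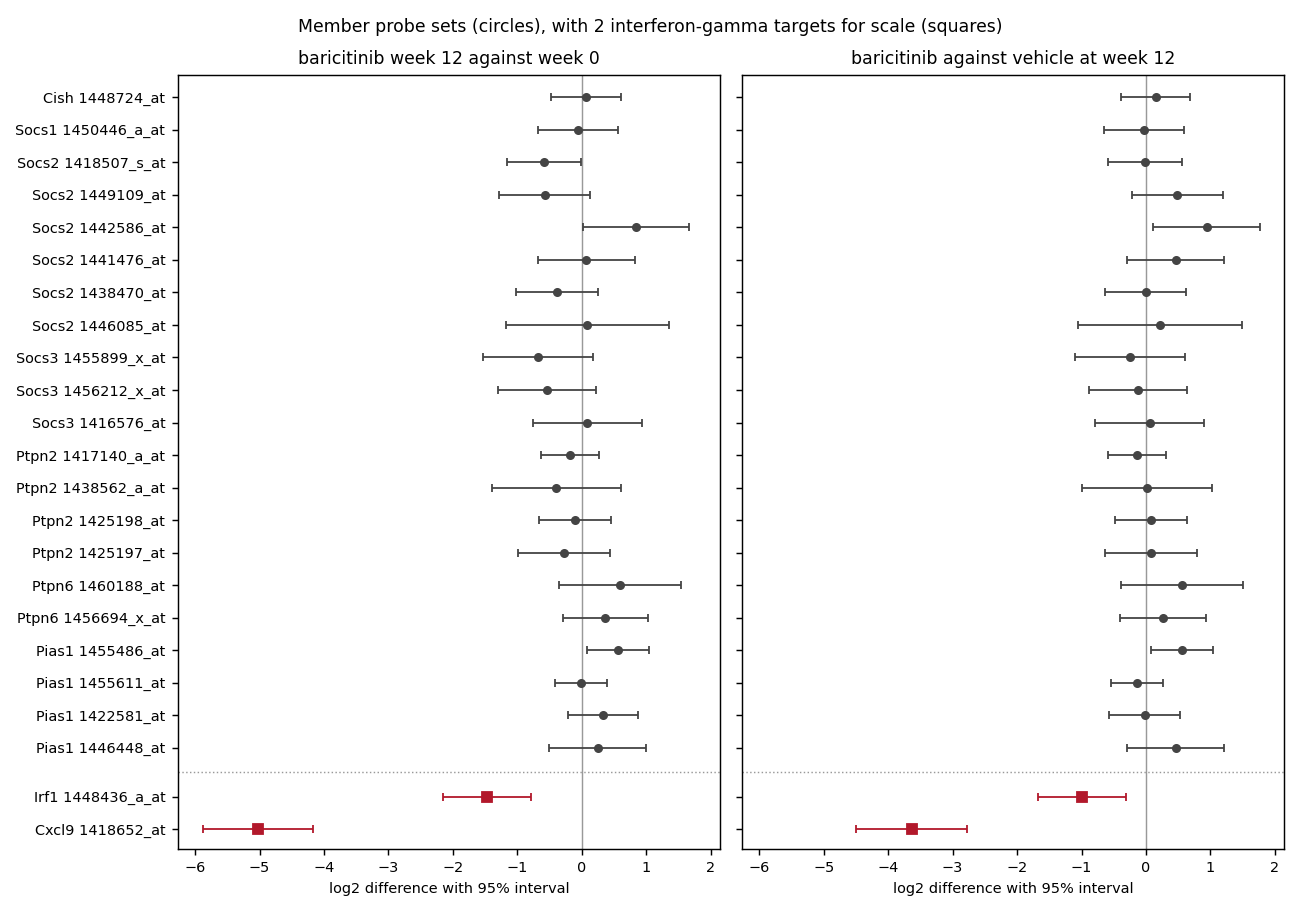
Log2 differences of the 21 member probe sets (circles) for baricitinib week 12 against week 0 (left) and baricitinib against vehicle at week 12 (right), with unadjusted 95% intervals from the fit and with Irf1 and Cxcl9 as squares for scale. None of the 21 circles passed the adjusted threshold in either panel, and Irf1 passed it only in the left panel (adjusted p = 0.0456 there and 0.221 in the right panel).

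The receptor-binding member Cish was measured by 1 probe set (1448724_at). It had 9.19, 9.53 and 9.46 at baricitinib week 12, against 9.43, 9.03 and 9.53 at baricitinib week 0. In the vehicle mice it had 9.48, 9.16 and 9.09 at week 12, against 9.26, 9.09 and 8.57 at week 0. All 4 groups overlapped, and the lowest value was that of vehicle week 0 replicate 3. Its difference was 0.07 (95% interval -0.47 to 0.61) for baricitinib week 12 against week 0 and 0.15 (-0.39 to 0.69) for baricitinib against vehicle at week 12. The first interval runs from a 0.722-fold to a 1.52-fold level, so a halving of Cish lies outside it. RNA quality was not part of this fit, and Cish is taken up again with it below.

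Socs1, which encodes the inhibitor of JAK kinases most closely tied to interferon-gamma, was also measured by 1 probe set (1450446_a_at). It had 3.92, 3.84 and 3.94 at baricitinib week 12, against 3.85, 3.93 and 4.09 at baricitinib week 0. Vehicle mice had 4.10, 3.98 and 3.73 at week 12, against 4.31, 3.85 and 3.09 at week 0. On all 12 arrays it was below the median of all probe sets of that array (5.16 to 5.35), as were 37.6% of all probe sets. A probe set this dim may not report a change of its transcript, and the difference of -0.06 (-0.68 to 0.56) for baricitinib week 12 against week 0 is to be read with that limit.

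**Figure D2:**
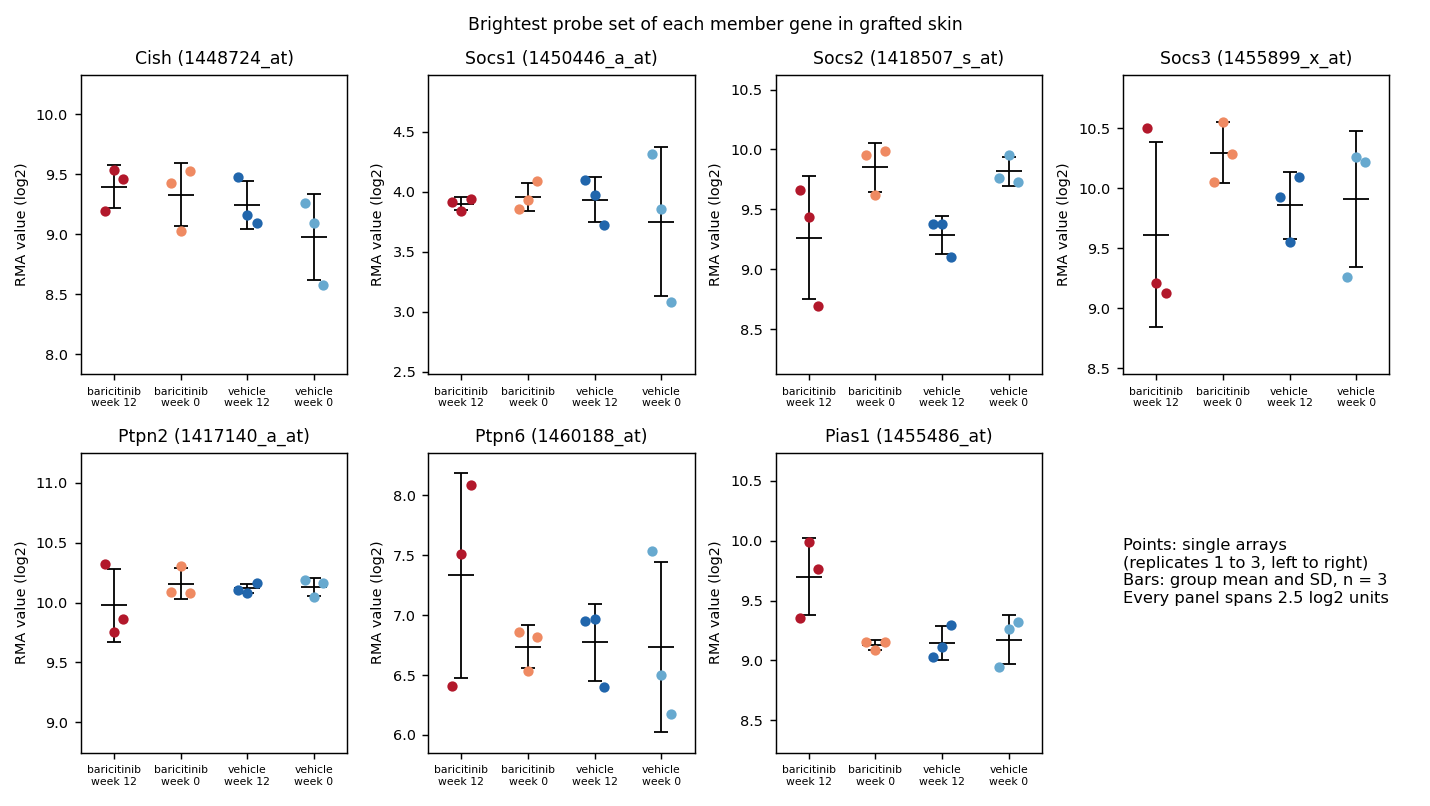
RMA values (log2) of the probe set with the highest mean of each of the 7 genes on the 12 arrays, with the mean and SD of each group (n = 3) as bars. Groups run from baricitinib week 12 to vehicle week 0, and every panel spans 2.5 log2 units. Only Pias1 has all 3 baricitinib week 12 points above all 3 points of baricitinib week 0 and of vehicle week 12. Over all probe sets, 15.9% and 17.1% did not overlap in these comparisons, each taken alone and in either direction.

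Socs2, best known for limiting growth hormone and other STAT5 signals, had lower means at week 12 in both treatments by its 2 brightest probe sets. The differences did not pass the threshold. Probe set 1418507_s_at had 9.67, 9.44 and 8.69 at baricitinib week 12, against 9.95, 9.62 and 9.99 at baricitinib week 0. The vehicle mice had 9.38, 9.38 and 9.10 at week 12, against 9.77, 9.96 and 9.73 at week 0. The vehicle groups did not overlap and the baricitinib groups did. Probe set 1449109_at had 5.45, 6.10 and 5.95 at baricitinib week 12, against 6.25, 6.92 and 6.05 at baricitinib week 0. In the vehicle mice it had 5.73, 5.43 and 4.89 at week 12, against 6.48, 6.18 and 5.72 at week 0. For baricitinib week 12 against week 0 the difference of 1418507_s_at was -0.59 (-1.16 to -0.01, adjusted p = 0.392). Averaged over both treatments, a comparison added after seeing the data, week 12 minus week 0 was -0.56 (SE 0.185) for 1418507_s_at and -0.68 (SE 0.228) for 1449109_at. Neither passed the threshold (adjusted p = 0.302 and 0.314 by limma), in a comparison that called 0.278% of all probe sets. The change with baricitinib minus the change with vehicle was -0.06 (-0.87 to 0.75) for 1418507_s_at and 0.21 (-0.79 to 1.20) for 1449109_at, so the treatments could not be told apart in this respect.

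**Figure D3:**
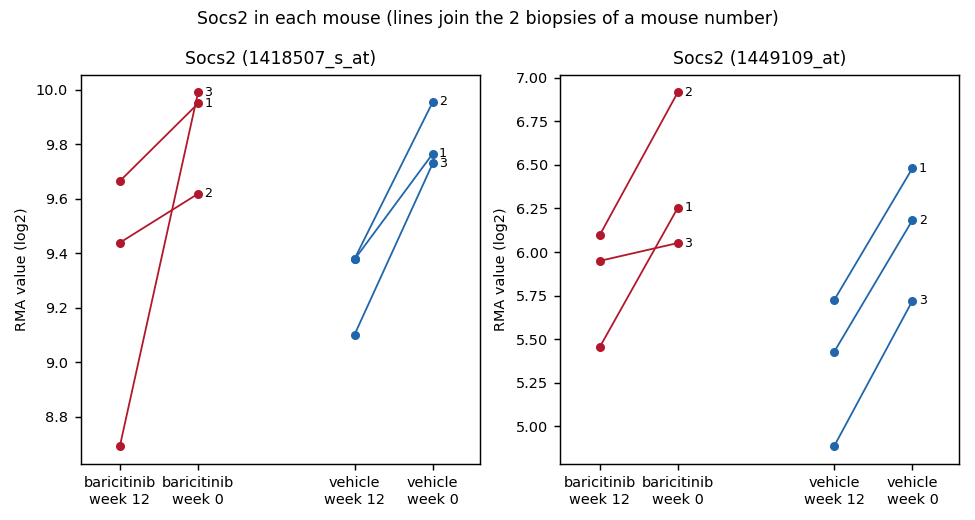
RMA values (log2) of Socs2 probe sets 1418507_s_at and 1449109_at at week 12 and week 0, with a line for each mouse number (1 to 3, printed beside the week 0 point). All 6 lines of either panel are lower at week 12, by between 0.10 and 1.30 on the log2 scale. The share of all probe sets with 6 such lines was not counted, and the pairing by number was assumed.

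The level of 1418507_s_at moved with that of 1 skeletal muscle transcript. The gene whose values over the 12 arrays were most like it was Myh4, a myosin heavy chain of fast muscle (r = 0.90, and 0.84 over the deviations from the group means), followed by Lrat (r = 0.89) and Hspa2 (r = 0.87). Myh4 had 13.07, 9.25 and 5.94 at baricitinib week 12, against 12.65, 12.66 and 12.31 at baricitinib week 0. At vehicle week 12 it had 9.03, 7.81 and 6.21, against 11.96, 12.95 and 13.02 at vehicle week 0. The other 3 muscle markers did not share this pattern, with correlations of 0.35 (Acta1), 0.40 (Ckm) and 0.11 (Tnnt3) with Socs2 over the 12 arrays. Their differences for vehicle week 12 against week 0 were 0.05 for Acta1, -0.17 for Ckm and -0.02 for Tnnt3, against -4.96 for Myh4. None of the 4 was called by limma, and 1, Myh4, was lower at an unadjusted p under 0.05. Baricitinib week 12 replicate 3, the lowest array for this Socs2 probe set, was also the lowest for Myh4, Acta1 and Ckm. Without that array the Socs2 difference for baricitinib week 12 against week 0 was -0.30. The part of muscle in the Socs2 values was not tested, and in whole skin fewer cells of a type and less RNA per cell cannot be told apart.

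The other 4 Socs2 probe sets were dim, with means between 4.04 and 4.66, and correlated with 1418507_s_at at r = -0.06 to 0.32 over the 12 arrays. The highest correlation of the 4 with 1449109_at was that of 1441476_at (r = 0.56). For week 12 against week 0 over both treatments, 1438470_at had -0.36 (adjusted p = 0.730 by limma). Among the 4, 1442586_at had 5.44, 5.21 and 5.15 at baricitinib week 12, against 4.98, 3.43 and 4.84 at baricitinib week 0. Mice given vehicle had 4.13, 4.10 and 4.74 at week 12, against 4.99, 4.45 and 4.52 at week 0. The baricitinib week 12 arrays lay above both the baricitinib week 0 and the vehicle week 12 arrays. Its differences were 0.85 (0.02 to 1.67, adjusted p = 0.392) and 0.94 (0.12 to 1.77, adjusted p = 0.375). The first rested on baricitinib week 0 replicate 2 and was 0.35 without it. Both are positive, while those of 1418507_s_at were -0.59 and -0.02. The 2 probe sets correlated at r = -0.06 over the 12 arrays, and 1442586_at was under the array median on 11 of the 12 arrays. Groups that do not overlap were found for 2 of the 21 members in each of 3 comparisons. These were 1442586_at and Pias1 1455486_at for baricitinib week 12 against week 0 (15.9% of all probe sets) and again for baricitinib against vehicle at week 12 (17.1%). For vehicle week 12 against week 0 (8.27%) they were 1418507_s_at and Pias1 1455611_at. For the treatments at week 0 there were 0 (5.0%). As a share, 2 of 21 is 9.52%, below the background of both comparisons with baricitinib week 12.

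Socs3, the inhibitor induced chiefly by STAT3 and the IL-6 family, had the most negative difference of the 7 genes for baricitinib week 12 against week 0, and this rested on 2 of the 3 treated arrays. Probe set 1455899_x_at had 10.50, 9.21 and 9.13 at baricitinib week 12, against 10.05, 10.56 and 10.28 at baricitinib week 0. In the vehicle mice it had 9.93, 9.55 and 10.09 at week 12, against 9.26, 10.26 and 10.22 at week 0. Baricitinib week 12 replicate 1 was among the highest arrays, and vehicle week 0 replicate 1 was as low as the other 2 treated arrays. The difference was -0.68 (-1.53 to 0.17, adjusted p = 0.543) for baricitinib week 12 against week 0 and -0.24 (-1.10 to 0.61, adjusted p = 0.926) for baricitinib against vehicle at week 12. The second probe set, 1456212_x_at, followed it closely (r = 0.98 over the 12 arrays), with differences of -0.53 and -0.12. The third, 1416576_at, did not (r = -0.48 with the first), and its differences were 0.09 and 0.06. The suffix x marks probe sets in which some probes also match other sequences, and this applies to the pair with the higher signal.

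Ptpn6 encodes SHP-1, a phosphatase best known from leukocytes. Its probe set 1460188_at had 6.41, 7.51 and 8.08 at baricitinib week 12, against 6.86, 6.54 and 6.82 at baricitinib week 0. Vehicle skin had 6.95, 6.97 and 6.40 at week 12, against 7.53, 6.50 and 6.17 at week 0. The differences were 0.59 (-0.35 to 1.54, adjusted p = 0.664) and 0.56 (-0.39 to 1.5, adjusted p = 0.754), and those of 1456694_x_at were 0.36 and 0.26. Over 5 leukocyte markers (Ptprc, Laptm5, Coro1a, Cd53 and Cd52) the mean level was 10.04 to 10.25 at baricitinib week 12, against 10.42 to 10.81 at baricitinib week 0. It was 10.41 to 10.70 at vehicle week 12, against 10.47 to 11.01 at vehicle week 0. Of the 3 highest Ptpn6 values, 2 came from baricitinib week 12 arrays with leukocyte means of 10.25 and 10.14, and 1 came from vehicle week 0 replicate 1, whose leukocyte mean of 11.01 was the highest of all arrays. Over the 12 arrays the correlation of Ptpn6 with the leukocyte mean was 0.03. This mean joins markers that did not move together, and the relation of Ptpn6 to leukocyte content was not tested. Without baricitinib week 12 replicate 3 the Ptpn6 differences were 0.22 and 0.18, and without replicate 1 they were 1.06 and 1.02.

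The 2 x_at probe sets of Socs3 and both probe sets of Ptpn6 followed the same property of the arrays in opposite directions. The arrays carry probe sets at both ends of the actin transcript, and the 3′ minus the 5′ value is lower where the RNA was copied more completely. This index was 1.53 and 1.52 on baricitinib week 12 replicates 2 and 3 and 1.62 on vehicle week 0 replicate 1, against 2.94 to 4.36 on the other 9 arrays. The Gapdh index set the same 3 arrays apart (0.841 to 1.10, against 2.17 to 4.29). On these 3 arrays Socs3 1455899_x_at was at 9.13 to 9.26, against 9.55 to 10.6 on the other 9, and Ptpn6 1460188_at was at 7.51 to 8.08, against 6.17 to 6.97. Over the 12 arrays the correlation with the actin index was 0.90 for both Socs3 x_at probe sets, -0.91 for Ptpn6 1460188_at and -0.88 for Ptpn6 1456694_x_at. A larger correlation, taken without its sign, was found for 2.44% to 3.79% of all probe sets. The third Socs3 probe set, 1416576_at, was at -0.66, the same sign as Ptpn6, and 29.6% of all probe sets had a larger correlation. Cish was at -0.61, where 37.2% had a larger correlation, and at -0.78 over the deviations from the group means. The leukocyte markers were split by this index, with Ptprc at 0.85, Cd53 at 0.32, Laptm5 at 0.07, Cd52 at -0.61 and Coro1a at -0.70. With the index as a covariate, an alternative added after seeing the data, the difference of Socs3 1455899_x_at for baricitinib week 12 against week 0 was -0.00 (adjusted p = 0.995) and that of Ptpn6 1460188_at was -0.17 (adjusted p = 0.773). For baricitinib against vehicle at week 12 they were 0.31 and -0.06, so in that fit the sign of both turned. The difference of Cish for baricitinib week 12 against week 0 was -0.22 in that fit, against 0.07 without the index.

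**Figure D4:**
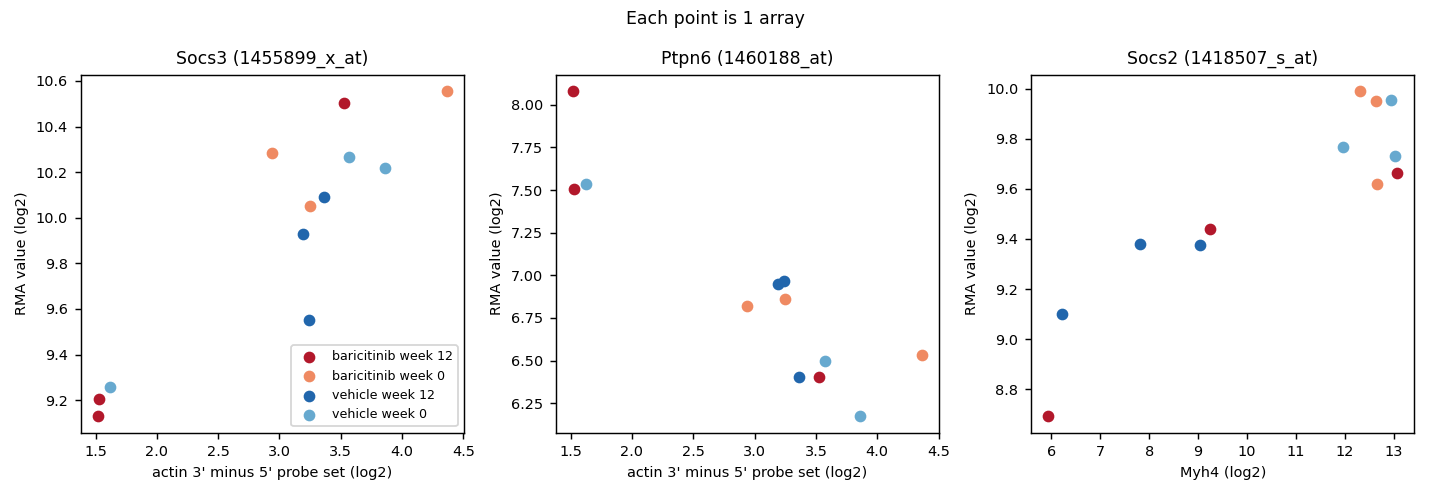
RMA values (log2) of Socs3 and Ptpn6 on each of the 12 arrays against the actin 3′ minus 5′ index (log2), and of Socs2 against Myh4 (log2), with groups by colour. The 3 arrays with an index below 2 have the lowest Socs3 and the highest Ptpn6 values, and baricitinib week 12 replicate 3 is lowest on both axes of the Socs2 panel.

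Ptpn2, whose phosphatase acts on JAK1 and JAK3 and on STATs in the nucleus, varied least among the genes when each was read from its brightest probe set, here 1417140_a_at. It had 10.32, 9.75 and 9.86 at baricitinib week 12, against 10.09, 10.31 and 10.08 at baricitinib week 0. In the vehicle mice it had 10.11, 10.08 and 10.16 at week 12, against 10.18, 10.05 and 10.16 at week 0. The vehicle arrays thus lay within a narrow band, and the 3 baricitinib week 12 arrays spread to either side of it. The difference was -0.18 (-0.63 to 0.27) for baricitinib week 12 against week 0, an interval from 0.645-fold to 1.21-fold, and -0.14 (-0.59 to 0.31) for baricitinib against vehicle at week 12. Its other 3 probe sets had differences of -0.39 (1438562_a_at), -0.10 (1425198_at) and -0.28 (1425197_at) for baricitinib week 12 against week 0, and 0.02, 0.08 and 0.07 for baricitinib against vehicle at week 12. All 8 intervals included 0.

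Pias1 was the only gene of the 7 for which the probe set with the highest mean separated the treated arrays from the arrays of both groups it was compared with. This probe set, 1455486_at, had 9.35, 9.99 and 9.76 at baricitinib week 12, against 9.16, 9.08 and 9.16 at baricitinib week 0. Vehicle-treated mice had 9.03, 9.11 and 9.30 at week 12, against 8.94, 9.26 and 9.32 at week 0. Paired by mouse number, it was higher at week 12 in 3 of 3 baricitinib mice and in 1 of 3 vehicle mice. The share of all probe sets with such counts was not taken. The difference was 0.57 (SE 0.220, 0.09 to 1.05, adjusted p = 0.293 by limma) for baricitinib week 12 against week 0 and 0.55 (0.07 to 1.03, adjusted p = 0.371) for baricitinib against vehicle at week 12. The change with baricitinib minus the change with vehicle was 0.60 (-0.08 to 1.28, adjusted p = 0.850). Groups did not overlap for 15.9% of all probe sets in the first comparison and 17.1% in the second, and the share for both at once was not counted. The differences of 1455486_at were 1.48-fold and 1.47-fold and did not pass the threshold. Leaving out 1 array gave 0.42 to 0.74 and 0.41 to 0.73. Of the other 3 probe sets of Pias1, whose differences from this one were not tested, 1455611_at had differences of -0.01 (-0.42 to 0.40) and -0.14 (-0.54 to 0.27), 1422581_at had 0.33 and -0.02, and 1446448_at had 0.25 and 0.46.

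Over the 12 arrays 1455486_at correlated with the mean of 8 macrophage and dendritic cell markers at r = -0.83, with that of 6 hair follicle markers at r = -0.80, with that of 4 endothelial markers at r = 0.76 and with that of 3 adipocyte markers at r = 0.74. These 4 were picked as the largest, without the sign, among all marker lists. Leukocyte markers and B and plasma cell markers were each at -0.68. Correlations over the deviations from the group means were not taken. Hair follicle markers averaged 5.46 to 6.48 at baricitinib week 12, against 9.76 to 11.2 at baricitinib week 0 and 9.05 to 9.34 at vehicle week 12, and 5 of the 6 were called lower against week 0 and 1 (Krt35) against vehicle. Held to a fixed replicate block for the mouse, only Krt35 was called against week 0 (adjusted p = 0.0244, and 0.056 to 0.0843 for the other 4). The paper saw hair regrow in mice given topical baricitinib and found no clinical sign of regrowth with vehicle. How these marker levels relate to regrowth was not tested. Adipocyte markers averaged 11.16 to 11.44 at baricitinib week 12, against 8.62 to 10.03 at baricitinib week 0 and 8.81 to 10.23 at vehicle week 12. Endothelial markers averaged 6.25 to 6.64 at baricitinib week 12, against 5.06 to 5.78 at baricitinib week 0 and 5.5 to 5.93 at vehicle week 12, with 0 of the 4 called by limma and 2 higher at an unadjusted p under 0.05 in either comparison. Macrophage and dendritic cell markers averaged 7.09 to 7.75 at baricitinib week 12, against 7.79 to 7.91 at baricitinib week 0 and 7.51 to 7.91 at vehicle week 12. Of these 8 markers 6 were lower against week 0, while Cd207 was higher by 1.30. At vehicle week 0 the means were 7.52 to 11.04 for hair follicle, 9.07 to 9.64 for adipocyte and 5.41 to 5.78 for endothelial markers. For macrophage and dendritic cell markers they were 7.42 to 8.17. The first 3 lists thus set the baricitinib week 12 arrays apart, as 1455486_at did, while macrophage and dendritic cell means overlapped with both vehicle groups. Pias1 1455611_at correlated with macrophage and dendritic cell markers at -0.06 and with follicle markers at 0.01. The part of tissue makeup in the Pias1 values was not tested. Keratinocyte markers, which define the tissue, averaged 12.3 to 12.9 on all arrays.

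Within a gene the probe sets often disagreed. Of the 15 pairs of Socs2 probe sets, the correlation over the 12 arrays ran from -0.46 to 0.56, and for the 6 pairs of Pias1 it ran from -0.07 to 0.54. The pair of Ptpn6 (r = 0.89) and the x_at pair of Socs3 (r = 0.98) agreed. Between genes the strongest relation among the probe sets with the highest means was that of Socs3 with Ptpn6 (r = -0.89), both of which moved with the actin index. Of the 21 probe sets, 13 were above the median of their array on all 12 arrays and 4 were below it on all 12. The gap between the highest and the lowest group mean was under 0.5 for 13 of the 21 and reached 1 for 1, Socs2 1449109_at. For this probe set baricitinib week 0 was highest (6.41 ± 0.45, SD, n = 3), and below it came vehicle week 0 (6.13 ± 0.38), baricitinib week 12 (5.83 ± 0.34) and vehicle week 12 (5.35 ± 0.42). Neighbours in this order lay within about their SDs of each other, except baricitinib week 12 and vehicle week 12, which differed by 0.49.

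The genes most like each of the other members, by Pearson's r over the 12 arrays between the probe sets with the highest means, were as follows. Cish was most like Vps45 (0.90), Ndufa7 (0.89) and Pick1 (0.89), and Socs1 was most like Asl (0.95), Tpcn2 (0.94) and AI661453 (0.88). Socs3 was most like Yars2 (0.95), Pkp2 (0.94) and Gm26744 (0.94), and Ptpn6 was most like A930013F10Rik (0.98), Clptm1 (0.98) and Ube3b (0.98). Ptpn2 was most like Vmn1r25 (0.94), Aars (0.91) and Pinx1 (0.90), and Pias1 was most like Agtr2 (0.95), Trpm3 (0.94) and Angptl7 (0.93). The points share arrays, and therefore RNA quality and tissue makeup, and each list holds the highest of 18193 genes. None of the other 6 feedback genes was among the 3 most like any member.

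The rest of the pathway was compared by lists, with 1 probe set a gene. Among 15 interferon-gamma targets, 9 fell for baricitinib week 12 against week 0 and 7 for baricitinib against vehicle at week 12, and 0 rose. Under a fixed replicate block for the mouse 7 were called lower in the first comparison, with Irf1 and Gbp2 (adjusted p = 0.0921) no longer called. Among those not called in either fit, Psmb9 had 0.07 and Tap1 -0.34 against week 0. Over all 18193 genes, 1.55% were called lower and 0.50% higher in the first comparison and 0.709% and 0.242% in the second. The median of the targets was -2.73 in the first and -2.11 in the second, against -0.06 and -0.02 for the 7 feedback genes and -0.02 and -0.04 for all genes. For the change with baricitinib minus the change with vehicle, 0 of the 15 targets were called by limma (median -2.32), with 10 lower at an unadjusted p under 0.05. Irf1, the transcription factor whose stretch is shown above, had 8.63, 8.62 and 8.34 at baricitinib week 12, against 10.17, 9.65 and 10.19 at baricitinib week 0, and fell by 1.47 (adjusted p = 0.0456 by limma). It had 9.77, 9.53 and 9.28 at vehicle week 12, which gave -1.0 (adjusted p = 0.221) for baricitinib against vehicle. The adjusted p for week 12 against week 0 was 0.0815 in a fit that held the mouse as a replicate block.

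Upstream, 2 of 16 cytokines fell in baricitinib-treated skin against week 0. Ifng, the gene of interferon-gamma, had 3.77, 4.98 and 4.35 at baricitinib week 12, against 8.19, 7.16 and 8.27 at baricitinib week 0. This was a fall of 3.50 (adjusted p = 0.0028 by limma). In the vehicle mice it had 7.20, 6.73 and 6.47 at week 12, against 8.30, 7.36 and 7.52 at week 0. Osm, an IL-6 family cytokine that acts through STAT3, had 4.48, 3.88 and 4.14, against 5.61, 5.64 and 5.71 at baricitinib week 0, and fell by 1.49 (adjusted p = 0.031, and 0.0779 under that block). Against vehicle at week 12, Ifng fell by 2.43 (adjusted p = 0.0248) and Osm had -0.88 (adjusted p = 0.242). Of 10 JAK and STAT genes, only Stat4, the factor downstream of IL-12, was called, with -2.25 (adjusted p = 0.0223, and 0.0584 under that block) against week 0 and -2.01 (adjusted p = 0.0503) against vehicle. Jak1 and Jak2, the targets of the drug, had -0.09 and -0.39 against week 0. None of the 19 receptor chains with a probe set and none of the 13 STAT3 and STAT5 targets passed in either comparison by limma. At an unadjusted p under 0.05, 1 receptor chain was lower and 1 higher against week 0 and 3 were lower and 1 higher against vehicle, and of the STAT3 and STAT5 targets 1 was lower against week 0 and 1 lower and 1 higher against vehicle. Bcl3, which had the lowest difference of the STAT3 and STAT5 targets, was at -1.71 (adjusted p = 0.0764) and -1.84 (adjusted p = 0.0838).

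**Figure D5:**
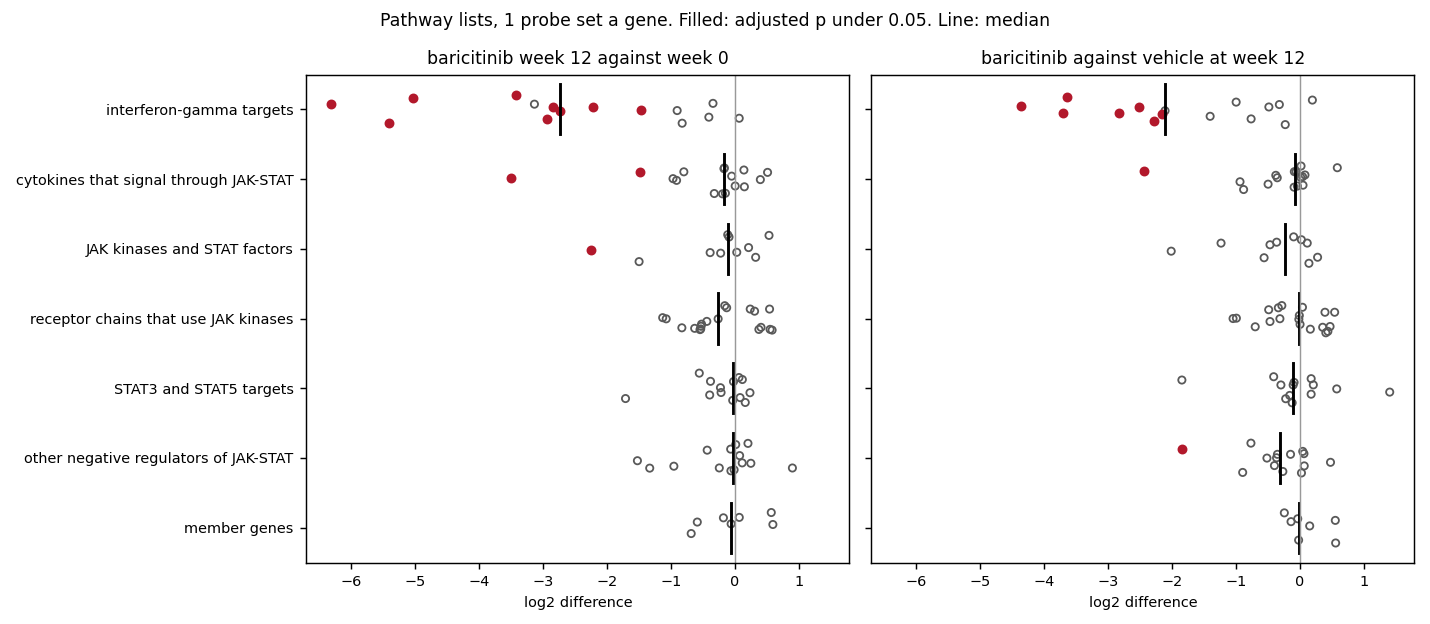
Log2 differences of the genes of 6 pathway lists and of the 7 feedback genes (1 point a gene, filled where the adjusted p was under 0.05, with the median as a line) for baricitinib week 12 against week 0 and baricitinib against vehicle at week 12. The filled points are 9 and 7 interferon-gamma targets, 2 and 1 cytokines, 1 and 0 JAK or STAT genes and 0 and 1 other regulators, while 0 of the feedback genes are filled.

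Among 14 further negative regulators, which include the remaining SOCS and PIAS genes and CBL ligases, 1 was called, and it was a SOCS gene. Socs5, a family member linked to IL-4 and EGF receptor signals, had 7.39, 8.06 and 7.95 by probe set 1423349_at at baricitinib week 12, against 9.21, 9.01 and 9.75 at baricitinib week 0. It had 10.17, 9.72 and 9.05 at vehicle week 12, against 9.97, 10.10 and 9.47 at vehicle week 0. All 3 baricitinib week 12 arrays lay below all of the other 9, and the share of all probe sets for which this holds was not counted. Socs5 was lower by 1.85 than with vehicle at week 12 (SE 0.333, adjusted p = 0.0364 by limma). Baricitinib week 12 against week 0 gave -1.52 (adjusted p = 0.053 by limma). At week 0, before the drug, the baricitinib group was at -0.52 against vehicle (-1.25 to 0.20). The change with baricitinib minus the change with vehicle was -1.33 (adjusted p = 0.623 by limma). The second Socs5 probe set, 1423350_at, had 8.31, 8.64 and 8.51 at baricitinib week 12, against 8.80, 8.37 and 8.28 at vehicle week 12, a difference of 0.01 (adjusted p = 0.998). The call thus held for 1 of the 2 probe sets. It was lost with only the 2 groups compared in the fit (adjusted p = 0.129) and in 7 of the 12 fits that left out an array, where the adjusted p ran from 0.0375 to 0.143. Usp18, which limits type I interferon receptors, had -1.33 (adjusted p = 0.406) against week 0 and -0.89 (adjusted p = 0.698) against vehicle.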

How the data were processed

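RNA of skin biopsies was amplified, labelled and hybridised to Affymetrix mouse genome arrays by the authors, who then applied RMA within each experiment and dropped samples of poor quality. The deposited values are on the log2 scale and were used unchanged. The RMA version is not given in the sources used here. Without the 64 control probe sets, 45037 remained, of which 34945 carried 1 symbol, 932 several and 9160 none. For each gene, the probe set of highest mean over the arrays stood for it. Groups followed the labels of the 12 arrays.

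Linear models with a mean for each of the 4 groups were fitted over all probe sets with limma 3.58.1 in R 4.3.3 (8 residual degrees of freedom and a prior of 3.542). P-values are two-sided and were adjusted within each comparison, over every probe set, by Benjamini-Hochberg, at a threshold of 0.05. Intervals are unadjusted at 95%. The number of arrays limits the precision. The genes, the lists, the cell markers and the rules for naming genes (all member probe sets, and the 3 genes most like each member) were chosen with earlier results of these data known. Genes of lists named with values were chosen after these were seen. Some genes of the lists, among them Il2rg, Prlr, Lck and Plin1, were not analysed here.

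The mouse numbers are the replicate numbers of the sample labels, and that a number marks the same mouse at both times was assumed. The paper removed a baricitinib array of each time for failing quality control. It describes 3 mice per treatment, and 3 baricitinib arrays of each time were used here. Whether the removed arrays are among the 12, or whether the rest were renumbered, is not known here. The deviations from the group means of arrays with the same number correlated at -0.36, -0.51 and 0.47 for the baricitinib mice and at 0.44, -0.13 and 0.49 for the vehicle mice. Alternatives were median centring, cyclic loess, removal of dim probe sets, a prior variance that followed the level, a replicate block for the mouse (fixed or random), fits restricted to the groups compared, array weights, the mean of a gene's probe sets and each array left out. The actin index as a covariate, both arrays of lowest correlation left out, and week 12 against week 0 over both treatments were added after seeing the data. Promoter windows were read from RefSeq on GRCm38.p6. Figures were drawn with matplotlib 3.10.9 in Python 3.11.15.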

Additional observations from a re-analysis of the deposited data

How the results depend on the processing

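The count of members called was 0 under each alternative run for a comparison, array weights excepted. The fixed replicate block was run for 3 of the 5 comparisons and the fit of only the groups compared for 4, and the mean of a gene's probe sets counted genes. With array weights it was 5 for baricitinib week 12 against week 0, 7 for vehicle week 12 against week 0, 5 for baricitinib against vehicle at week 12, 3 for the treatments at week 0 and 2 for the difference of the changes. The estimation of these weights did not converge, and 11277 of the 45037 probe sets were called for baricitinib week 12 against week 0. Apart from array weights, the smallest adjusted p of a member was 0.0679 for baricitinib week 12 against week 0, for Socs2 1446085_at with the actin index as a covariate. With a fixed replicate block for the mouse, 0 members were called for baricitinib week 12 against week 0 (smallest adjusted p = 0.405), and the probe sets called on the array were 158, against 557 without the block. The fixed block could not be fitted for baricitinib against vehicle, since each mouse had 1 treatment. The random block had a consensus correlation of -0.00388 and called 0 members. Mean correlation with the other arrays was lowest for baricitinib week 0 replicate 2 (0.941) and baricitinib week 12 replicate 1 (0.946). Without both, 860 probe sets were called for baricitinib week 12 against week 0 and 1008 for baricitinib against vehicle at week 12. Pias1 1455486_at then had 0.72 and 0.73 in these comparisons (adjusted p = 0.122 and 0.0814 by limma).

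The interferon-gamma targets called lower were 4 for baricitinib week 12 against week 0 and 3 for baricitinib against vehicle at week 12 with only the groups compared, and 11 in the second comparison with array weights. Leaving out 1 array gave 5 to 9 targets in the first comparison, lowest without baricitinib week 0 replicate 3. In the second it gave 2 to 8, with 2 without vehicle week 12 replicate 1 and 4 without vehicle week 12 replicate 2 or replicate 3.

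Signs of small member differences turned under some alternatives, and the cause was not tested. For baricitinib against vehicle at week 12, Socs2 1418507_s_at (-0.02) was 0.0528 with cyclic loess, 0.00347 with array weights, 0.0656 with the actin index as a covariate and 0.35 as the mean of the gene's probe sets, and -0.22 to 0.27 with 1 array left out. Ptpn2 was 0.00813 as the mean of its probe sets. With the actin index as a covariate, Cish was -0.22 for baricitinib week 12 against week 0 and -0.0847 for baricitinib against vehicle at week 12, Ptpn6 1460188_at was -0.17 and -0.0568, and Socs3 1455899_x_at was 0.31 in the second comparison. With 1 array left out, Cish was -0.0810 to 0.17 for baricitinib week 12 against week 0, and Socs1 was -0.11 to 0.00494 in that comparison and -0.14 to 0.0476 for baricitinib against vehicle at week 12.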
